A study of Drosophila melanogaster with 12 samples.

Results

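The Jonah and trypsin genes of Drosophila melanogaster encode serine proteases that the midgut makes to digest dietary protein. They were picked from the gene tables by FlyBase symbol: symbols that begin with Jon and a digit, symbols that end in Try, and Try29F, yip7, Ser6, Ser7, Ser8 and Ser12. This gave 33 of the 16524 genes in the pharate table, made up of 12 trypsins, 16 Jonah genes and 5 others, and 32 of the 15651 genes in the adult table, where Ser12 was not analysed. The 12 libraries came from guts of male flies, with 50 guts dissected per sample and culture at 25 °C. In the pharate set (adults formed but not yet out of the pupal case, gut with Malpighian tubules) 2 libraries each were made from the Hinfp deletion allele Hinfp2, the Hinfp point allele Hinfp3, the control strain FRT19A and the control strain W1118. In the adult set 1 intestine library each was made from Y/Hinfp2 with tub-Gal4/UAS-Hinfp-HA (Hinfp rescue), Y/Hinfp2 with tub-Gal4/UAS-His1-HA (His1 rescue), Y/Hinfp2 alone (mutant) and Y/FRT19A (control). The tub-Gal4 driver is active in nearly all cells, so neither rescue was restricted to the gut. The design text gives ages of 8 to 9 days for mutants and rescues and 5 to 6 days for controls, so age and genotype cannot be told apart. It names pharate and adult flies together, and what these ages mean for pharate flies is not stated. The libraries of a pharate group carry the tags PE and SE, 1 of each, taken here for paired-end and single-end sequencing although no label says so. Whether the 2 libraries of a genotype go back to separate dissections is not stated in the labels, so the p-values below measure no more than the spread among these libraries, and that spread may be technical.

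Trypsins cleave proteins after lysine or arginine, and the Jonah genes encode related serine endopeptidases of the chymotrypsin fold. Both are made as inactive precursors by enterocytes, the absorptive cells of the midgut, and are released into the gut lumen, where cutting of the precursor frees the active enzyme. In flies the transcripts of digestive enzymes respond to diet and depend on gut GATA transcription factors. Hinfp is a zinc finger transcription factor known in flies for activating the gene of the linker histone His1.

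Most members sit in tandem clusters (coordinates on BDGP6, from the Ensembl annotation). A run of 11 trypsins from lambdaTry to iotaTry lies within 20698 bp at 2R:11336840-11357537. The gene yip7 and Jon65Ai to Jon65Aiv lie at 3L:6035216-6054443, the 3 Jon25B genes at 2L:4949941-4955144, the 3 Jon99C genes at 3R:29922216-29926189, the 2 Jon99F genes at 3R:30487016-30489895 and the 2 Jon66C genes at 3L:8391540-8393649. The neighbours gammaTry and deltaTry, both 810 bp long, are near-identical copies, and members of the other tandem sets are close relatives, so how reads were split among them is uncertain. Exons of Try29F overlap CG18661 on the same strand, and exons of Jon44E and deltaTry overlap CG8586 and CG13202 on the opposite strand. Ser8 lies inside ATP8A without sharing an exon.

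Each pharate library held 21924226 to 28740669 gene counts and each adult library 17991664 to 20271512. Levels are given in CPM, a gene's counts scaled to the total of gene counts in its library. Hinfp itself was measured at 5.66 to 9.44 CPM in the 4 pharate mutant libraries and at 9.39 to 15.5 CPM in the 4 control libraries (log2 fold change -0.87, adjusted p = 0.0837). In adults it was at 1597 CPM in the Hinfp rescue, 6.26 CPM in the His1 rescue, 5.28 CPM in the mutant and 12 CPM in the control. All 10 enterocyte markers outside the family were detected. Testis markers were higher in mutants than in controls in PE and adult libraries and overlapped in SE libraries. The 18 genes summed to 324 to 385 CPM in PE mutants, against 13.7 to 21.5 CPM in PE controls. In SE libraries they summed to 641 to 894 CPM in mutants, against 413 to 679 CPM in controls. The adult mutant had 1081 CPM, against 11.6 CPM in the adult control. Accessory gland markers summed to 1.80 to 298 CPM in pharate mutants and 0.835 to 498 CPM in pharate controls. The part of these markers in the protease differences below was not tested. In these bulk samples fewer enterocytes and less RNA per enterocyte cannot be told apart.

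The protease genes together made up 0.732% and 1.17% of gene counts in the deletion and point PE libraries and 0.784% and 1.18% in their SE libraries. In controls they made up 0.654% and 1.03% in the FRT19A and W1118 PE libraries and 0.534% and 0.671% in the SE libraries. The point mutant was the highest group, and the W1118 PE library lay above both deletion libraries. In adults the share was 3.38% in the Hinfp rescue, 3.14% in the His1 rescue, 0.853% in the mutant and 1.03% in the control, so both rescues lay more than 3-fold above the control. A handful of genes carried most of it. On the authors' TPM scale, which allows for gene length, yip7 (3066 TPM), alphaTry (3062 TPM), Jon65Aiv (1959 TPM), Jon65Aiii (1918 TPM) and Try29F (1104 TPM) had the highest means over the 8 pharate libraries, ahead of kappaTry at 560.5 TPM. The Try29F mean rested on SE libraries, with 2276 TPM in deletion, 1049 TPM in point and 4606 TPM in W1118. In FRT19A SE Try29F had 157 TPM, against 731 TPM for kappaTry. In PE libraries it had 80.8 to 335 TPM, against 380 to 559 TPM for kappaTry. Within a library the 4 leading members held 61.7% to 77.7% of the family's counts in pharate guts and 54.3% to 74.3% in adult guts. At the other end, Ser12 had 1 count over the 8 pharate libraries and was not tested, and Ser7 stayed between 1.01 and 3.10 CPM.

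**Figure D1:**
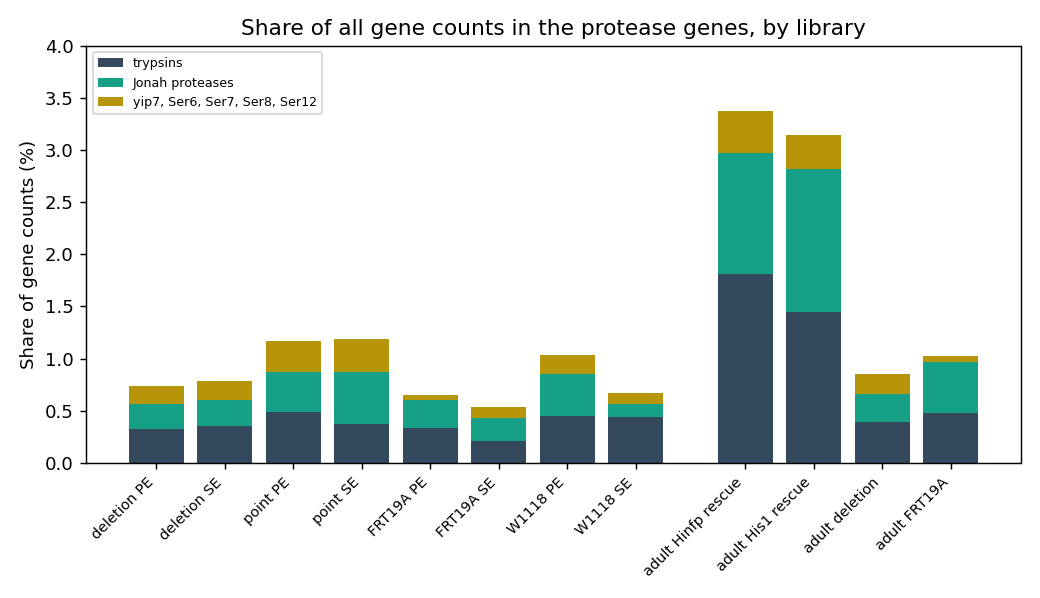
Stacked bars of the percentage of all gene counts held by the trypsins, the Jonah proteases and the 5 other serine proteases in each library, with 8 pharate libraries on the left and 4 adult libraries on the right. The adult Hinfp rescue (3.38%) and His1 rescue (3.14%) stand above the adult mutant (0.853%), the adult control (1.03%) and the pharate libraries (0.534% to 1.18%).

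The first comparison asked which protease genes differ between Hinfp mutant and control pharate guts, with 4 libraries in each class. One gene of 32 passed the test, zetaTry, and it fell. It had 14.5 and 32.2 CPM in the deletion and point PE libraries and 22.2 and 23.7 CPM in the deletion and point SE libraries. In controls it had 67.3 and 117 CPM in the FRT19A and W1118 PE libraries and 78.3 and 39.4 CPM in the FRT19A and W1118 SE libraries. The classes did not overlap, averaging 23.2 ± 7.26 CPM in mutants and 75.5 ± 32.1 CPM in controls (SD, n = 4 each), and the log2 fold change was -1.82 (standard error 0.42, adjusted p = 0.0336). The test was edgeR's quasi-likelihood test with Benjamini-Hochberg adjustment over 13244 genes at 0.05, of which 10.9% were called, 4.59% higher and 6.34% lower, so 1 call among 32 members is below the background. The median log2 fold change of the members was -0.08, against -0.01 over all genes, and 0.49, against 0.03, with the SE or PE tag as a block. The call was lost when any library other than W1118 SE was left out (adjusted p 0.0598 to 0.0982), while the fold change stayed between -2.1 and -1.5.

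**Figure D2:**
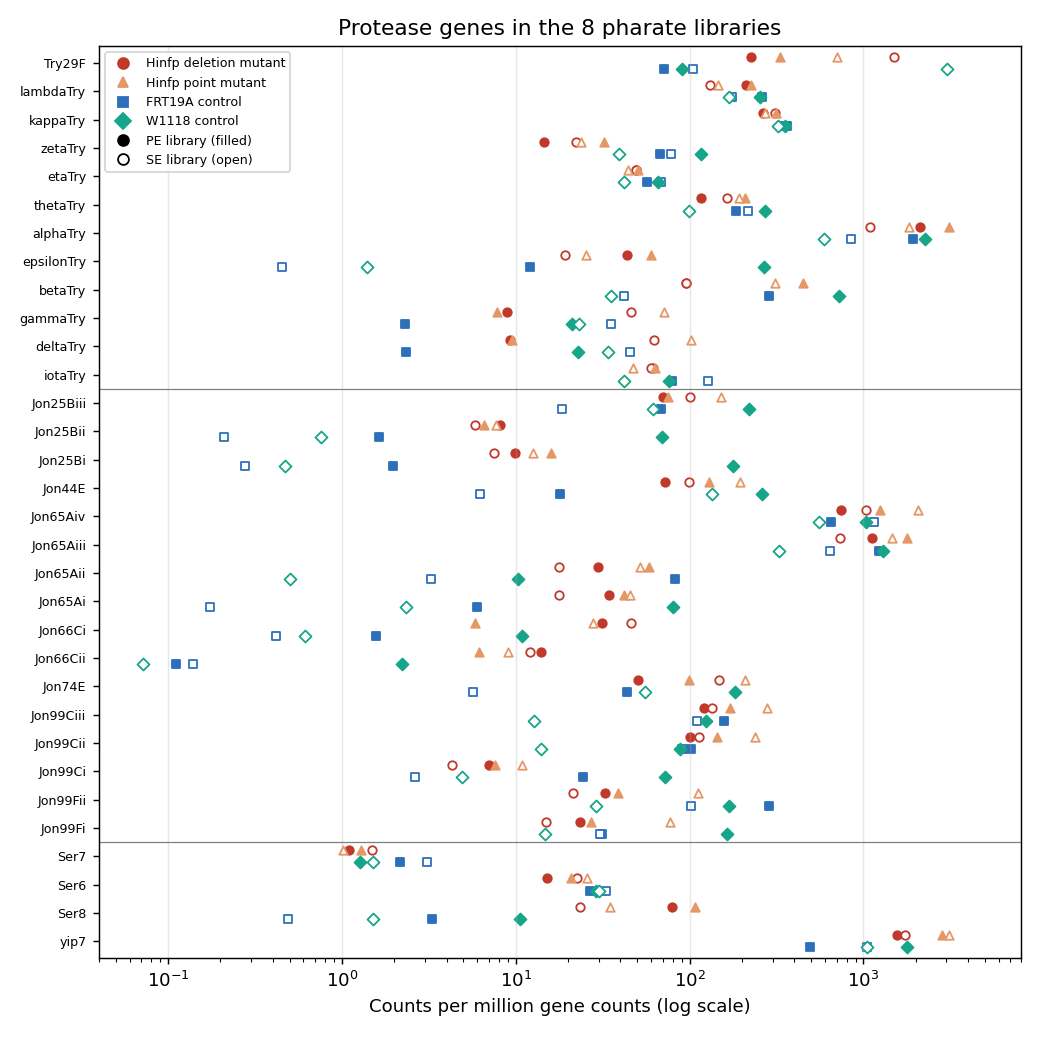
Level of each of the 32 tested protease genes in the 8 pharate libraries, in CPM on a log axis, with mutants drawn above controls in each row and PE libraries filled. Mutant points lie left of all controls for zetaTry (14.5 to 32.2 CPM) and right of all controls for Ser8 (23.5 to 107 CPM), and controls of epsilonTry or Jon25Bi span more than 100-fold.

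A further 4 genes had mutant libraries that did not overlap the controls without passing the test, with 2 above and 2 below. Ser8, a serine protease gene, had 78.8 and 107 CPM in the deletion and point PE libraries and 23.5 and 34.7 CPM in the deletion and point SE libraries. Its controls had 3.31 and 10.6 CPM in the FRT19A and W1118 PE libraries and 0.487 and 1.51 CPM in the FRT19A and W1118 SE libraries. All mutant libraries lay above all controls, at a log2 fold change of 3.83 (standard error 1.04, adjusted p = 0.0544). Jon66Cii, a Jonah gene at low level, had 14.0 and 6.18 CPM in the deletion and point PE libraries and 12.1 and 9.01 CPM in the deletion and point SE libraries. In controls Jon66Cii had 0.112 and 2.22 CPM in the FRT19A and W1118 PE libraries and 0.139 and 0.0719 CPM in the FRT19A and W1118 SE libraries. Its log2 fold change was 3.85 (standard error 1.19, adjusted p = 0.0792), again with every mutant library on top. Both were called when the W1118 PE library was left out: Ser8 was then at 5.05 (adjusted p = 0.0387) and Jon66Cii at 6.45 (adjusted p = 0.00653). Ser6 averaged 21.1 ± 4.42 CPM in mutants and 29.8 ± 2.66 CPM in controls (SD, n = 4 each), a log2 fold change of -0.58 (standard error 0.19, adjusted p = 0.0875). The trypsin kappaTry had 266 and 315 CPM in the deletion and point PE libraries and 309 and 269.7 CPM in the deletion and point SE libraries. Controls of kappaTry had 361 and 356 CPM in the FRT19A and W1118 PE libraries and 355 and 324 CPM in the FRT19A and W1118 SE libraries. Its spread within each class was small, and its log2 fold change was -0.35 (standard error 0.16, adjusted p = 0.218). Over the 12231 genes compared in this way, mutants lay above all controls for 10.1% and below all controls for 12.5%. With the SE or PE tag as a block, 5 members were called at 31.5% of all genes: Ser8 (log2 fold change 4.22, adjusted p = 0.00281) and Jon66Cii (4.50, 0.0254) higher, and zetaTry (-1.76, 0.0162), Ser6 (-0.59, 0.0359) and lambdaTry (-0.36, 0.0412) lower.

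The most abundant trypsin, alphaTry, had 2107 and 3106 CPM in the deletion and point PE libraries and 1083 and 1821 CPM in the deletion and point SE libraries. In controls it had 1926 and 2264 CPM in the FRT19A and W1118 PE libraries and 845 and 594 CPM in the FRT19A and W1118 SE libraries. In all 4 groups the PE library was the higher, and the mutant over control log2 fold change of 0.41 did not pass (adjusted p = 0.688). The neighbouring trypsin thetaTry had 116 and 208 CPM in the deletion and point PE libraries and 164 and 193 CPM in the deletion and point SE libraries. Controls of thetaTry had 186 and 271 CPM in the FRT19A and W1118 PE libraries and 218 and 99.2 CPM in the FRT19A and W1118 SE libraries. The classes overlapped, at a log2 fold change of -0.30 (adjusted p = 0.652). For lambdaTry the mutants had 209.6 and 226 CPM in the deletion and point PE libraries and 132 and 146 CPM in the deletion and point SE libraries. The lambdaTry controls had 262 and 255 CPM in the FRT19A and W1118 PE libraries and 176 and 168 CPM in the FRT19A and W1118 SE libraries. Within each tag every mutant of lambdaTry was below every control, and over all libraries the log2 fold change was -0.36 (adjusted p = 0.529). betaTry had 95.7 and 451 CPM in the deletion and point PE libraries and 94.8 and 311 CPM in the deletion and point SE libraries. Its controls had 285 and 726 CPM in the FRT19A and W1118 PE libraries and 41.8 and 35.1 CPM in the FRT19A and W1118 SE libraries. Both SE mutants of betaTry were above both SE controls while the PE classes overlapped, and the log2 fold change was -0.34 (standard error 1.06, adjusted p = 0.863). Of the 12 trypsins, 9 had negative and 3 positive estimates (median -0.35), and zetaTry alone was called. With the tag as a block 6 were negative and 6 positive (median -0.04), since betaTry (0.68), epsilonTry (1.3) and Try29F (0.64) turned positive.

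The cluster at 65A holds the leading non-trypsins. The gene yip7, first named from a protein interaction screen, had 1557 and 2826 CPM in the deletion and point PE libraries and 1736 and 3085 CPM in the deletion and point SE libraries. In controls yip7 had 492 and 1777 CPM in the FRT19A and W1118 PE libraries and 1047 and 1045 CPM in the FRT19A and W1118 SE libraries. Only the W1118 PE library reached into the mutant range, and the log2 fold change was 1.0 (standard error 0.43, adjusted p = 0.189). Jon65Aiii had 1122 and 1778 CPM in the deletion and point PE libraries and 734 and 1467 CPM in the deletion and point SE libraries. Controls of Jon65Aiii had 1224 and 1287 CPM in the FRT19A and W1118 PE libraries and 643 and 327 CPM in the FRT19A and W1118 SE libraries. The classes of Jon65Aiii overlapped (0.42, adjusted p = 0.662). For Jon65Aiv the mutants had 738 and 1249 CPM in the deletion and point PE libraries and 1035 and 2054 CPM in the deletion and point SE libraries. The Jon65Aiv controls had 650.2 and 1029 CPM in the FRT19A and W1118 PE libraries and 1149.7 and 556 CPM in the FRT19A and W1118 SE libraries. They overlapped as well (0.48, adjusted p = 0.521). Outside the cluster, Jon99Ciii had 121 and 171 CPM in the deletion and point PE libraries and 135 and 279 CPM in the deletion and point SE libraries. Its controls had 158 and 124 CPM in the FRT19A and W1118 PE libraries and 109.7 and 12.7 CPM in the FRT19A and W1118 SE libraries. The W1118 SE library was far below the other 7, and the log2 fold change was 0.64 (adjusted p = 0.622). Of the 16 Jonah genes, 10 estimates were positive and 6 negative (median 0.45), or 13 and 3 with the tag as a block (median 0.56), where the 3 Jon25B genes turned positive. Without the block none was called, with 2 at an unadjusted p under 0.05 and Jon66Ci and Jon66Cii called by DESeq2. The share of all genes called by DESeq2 is not given here. Over all 13244 genes tested without the block, 3438 were at an unadjusted p under 0.05.

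PE and SE libraries were then taken apart, 2 mutant against 2 control libraries each. In PE libraries 8 members were called: Ser8 and Try29F rose, and Jon99Ci, Jon99Fii, zetaTry, Ser6, iotaTry and etaTry fell. Of 12308 genes tested there, 39.6% were called, 22.7% higher and 16.9% lower. Jon99Ci had 7.02 and 7.55 CPM in the deletion and point mutants, against 24.5 and 72.0 CPM in FRT19A and W1118, at a log2 fold change of -2.82 (standard error 0.55, adjusted p = 0.0213). Jon99Fii had 32.4 and 38.6 CPM in the deletion and point mutants, against 286 and 168 CPM in FRT19A and W1118 (-2.79, standard error 0.33, adjusted p = 0.00852). Both Jonah genes were at least 3-fold lower in each PE mutant than in each PE control. Try29F had 227 and 332 CPM in the deletion and point mutants, against 71.2 and 90.1 CPM in FRT19A and W1118 (1.69, standard error 0.24, adjusted p = 0.0113). The falls of iotaTry and etaTry were small, at -0.43 and -0.40 on the log2 scale (adjusted p = 0.0345 and 0.0486). The calls changed whichever PE library was left out, in fits with a lone library in a class, and scaling by total counts left 5.

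In SE libraries edgeR called 0 of 32 members and 0.0% of the 12474 genes tested, with 12 members at an unadjusted p under 0.05. DESeq2 called 13 members. The share of all genes it called is not given here, and the edgeR share of 0.0% is no background for that count. Over all genes tested there, 3046 were at an unadjusted p under 0.05. Of the 16 Jonah genes 15 had positive estimates, with a median log2 fold change of 1.66, against -0.03 over all genes, while the trypsins had 6 positive and 6 negative (median -0.09). Other digestive products leaned the same way as the Jonah genes: 11 of 13 carbohydrate enzymes (median 0.86) and 12 of 14 other digestive enzymes and lysozymes (median 1.34) were positive, with none called. Enterocyte markers summed to 6415 to 7496 CPM in SE mutants, against 3184 to 4427 CPM in SE controls, without overlap, and to 7786 to 9771 CPM in PE mutants, against 7387 to 8901 CPM in PE controls, with overlap. The list shares Amy-p, Amy-d, Mal-A1 and mag with the enzyme lists above. The part of enterocyte markers in the protease differences was not tested. Jon66Ci had 45.7 and 27.7 CPM in the deletion and point SE libraries, against 0.418 and 0.611 CPM in FRT19A and W1118 (6.12, standard error 0.38, adjusted p = 0.0584). Jon65Ai had 17.8 and 45.6 CPM in deletion and point, against 0.174 and 2.34 CPM in FRT19A and W1118 (4.73, standard error 1.28, adjusted p = 0.149). epsilonTry, a trypsin of the 2R cluster, had 19.1 and 25.4 CPM in deletion and point, against 0.452 and 1.40 CPM in FRT19A and W1118 (4.6, standard error 0.57, adjusted p = 0.0833). Both SE mutants lay above both SE controls for 18 members and below both for 5, against 26.2% and 31.1% of 12231 genes. In PE libraries the same counts were 3 above and 9 below, against 44.3% and 31.3%. The absence of calls in SE libraries also depended on which library was left out, in fits with a lone library in a class.

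**Figure D3:**
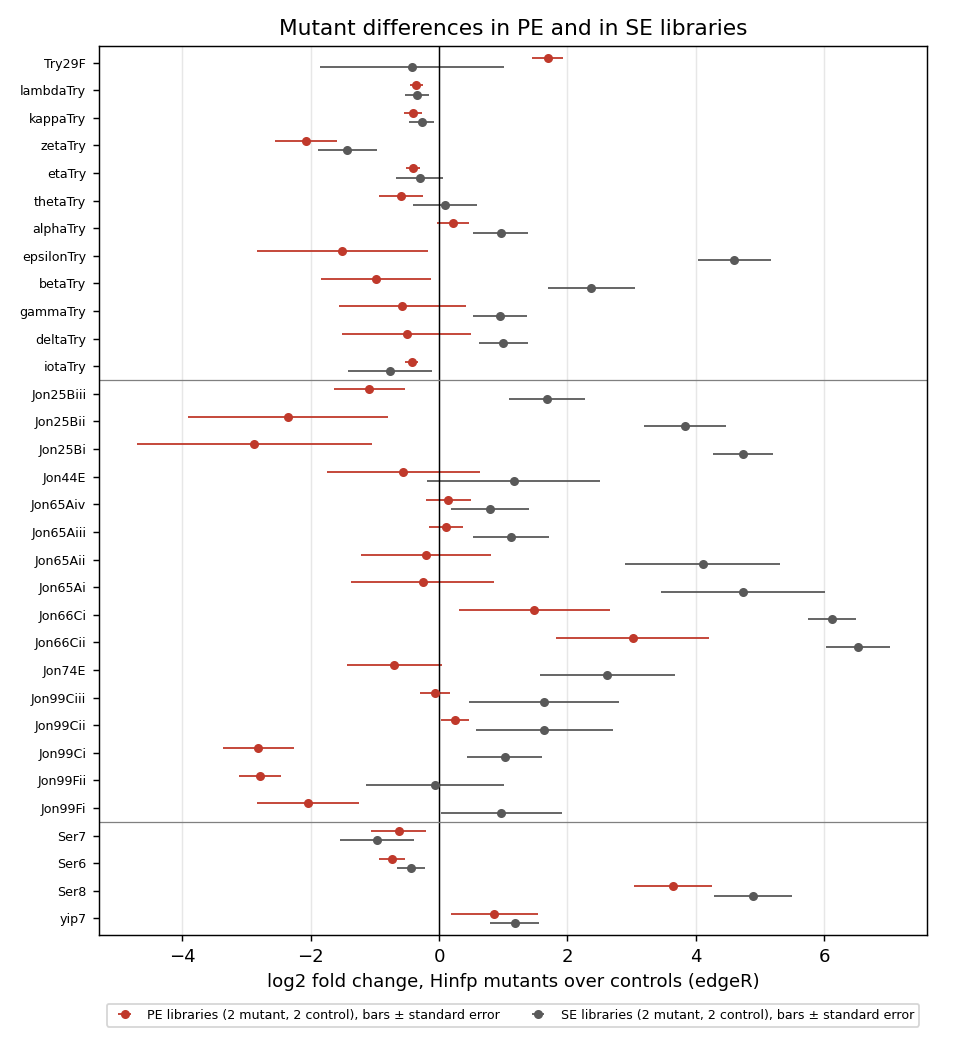
Log2 fold change of Hinfp mutants over controls for each protease gene, fitted on the 4 PE libraries (red) and on the 4 SE libraries (grey), with bars of 1 standard error. Jonah genes lie mostly right of 0 in SE libraries (median 1.66) and left of 0 in PE libraries (median -0.41), while Ser8, Jon66Cii and zetaTry keep their side.

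The difference between the PE and SE results was tested as the interaction of genotype class and tag. The estimate was negative for 29 of 32 members and for all 16 Jonah genes (median -3.23 for Jonah genes, 0.03 over all genes), meaning a mutant difference lower in PE than in SE libraries. None passed, against 6.07% of genes (5.81% higher and 0.264% lower), with 9 at an unadjusted p under 0.05. DESeq2 called 8 members, all lower, with no DESeq2 share of all genes beside them. Over all 13244 genes tested, 2211 were at an unadjusted p under 0.05. The member nearest to a call was Jon99Ci, at -3.90 (standard error 0.90, adjusted p = 0.0620). The absence of calls depended on the FRT19A libraries, and leaving out either of them left a lone control library for its tag.

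PE over SE itself, with group in the model, gave 3 higher members and 0 lower, where 20.1% of genes were called higher and 12.5% lower. Ser8 was higher in PE in all 4 groups (2.36, standard error 0.31, adjusted p = 0.00762), as were alphaTry (1.39, standard error 0.28, adjusted p = 0.0224) and lambdaTry (0.80, standard error 0.08, adjusted p = 0.00410). The copies gammaTry and deltaTry ran the other way. deltaTry had 9.26 and 9.48 CPM in the deletion and point PE libraries and 62.3 and 101 CPM in the deletion and point SE libraries. Its controls had 2.34 and 22.7 CPM in the FRT19A and W1118 PE libraries and 45.3 and 33.8 CPM in the FRT19A and W1118 SE libraries. It was lower in PE than in SE in every group, at -2.62 (standard error 0.75, adjusted p = 0.0539), which did not pass, and gammaTry was at -2.29 (adjusted p = 0.0797). Both were called lower when either W1118 library was left out. Without group in the model the calls were alphaTry and lambdaTry higher and deltaTry lower, and Ser8 was no longer called.

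Much of the spread in the control class came from single W1118 libraries. Jon25Bi had 1.97 and 178 CPM in the FRT19A and W1118 PE libraries and 0.278 and 0.467 CPM in the FRT19A and W1118 SE libraries. The W1118 PE library alone was high, and the mutants lay between at 9.90 and 15.9 CPM in the deletion and point PE libraries and 7.54 and 12.6 CPM in the deletion and point SE libraries. The log2 fold change of mutants over controls for Jon25Bi was -2.14 with all libraries and 3.54 without W1118 PE (adjusted p = 0.0613). Jon25Bii, epsilonTry, Jon65Ai and Jon99Fi also had their highest control value in W1118 PE, at 69.3, 266, 79.8 and 165 CPM, against 0.174 to 31.4 CPM in the other controls. Try29F stood out in the other W1118 library. It had 227 and 332 CPM in the deletion and point PE libraries and 1504 and 704 CPM in the deletion and point SE libraries. In controls Try29F had 71.2 and 90.1 CPM in the FRT19A and W1118 PE libraries and 104 and 3017 CPM in the FRT19A and W1118 SE libraries. Its log2 fold change was -0.12 over all libraries (adjusted p = 0.960) and 2.76 without W1118 SE (adjusted p = 0.0393), when it was called. CG18661, whose exon it overlaps, was at 3.60 to 6.25 CPM in mutants and 0.930 to 6.58 CPM in controls.

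Contrasts between single groups rested on 2 libraries each and called 0 members and 0.0% of genes in every case. For the deletion allele over FRT19A 7 members had an unadjusted p under 0.05 and DESeq2 called 6, and for the point allele over FRT19A these counts were 5 and 5. No share of all genes stands beside the DESeq2 counts of the single-group contrasts. Of all 13244 genes tested, 1949 had an unadjusted p under 0.05 in the deletion contrast and 1840 in the point contrast. Jon44E, a Jonah gene, had 71.9 and 129 CPM in the deletion and point PE libraries and 99.6 and 195 CPM in their SE libraries, and in controls 18.0 and 262 CPM in the FRT19A and W1118 PE libraries and 6.19 and 135 CPM in the FRT19A and W1118 SE libraries. FRT19A was below every other group in both tags, with log2 fold changes over FRT19A of 2.61 (standard error 0.70, adjusted p = 0.202) for the deletion allele, 3.57 (standard error 0.73, adjusted p = 0.165) for the point allele and 3.91 (standard error 0.74, adjusted p = 0.628) for W1118. With the tag as a block, lambdaTry (-0.55, adjusted p = 0.0468) and Ser8 (4.85, 0.0269) were called for the deletion allele, where 11.3% of genes were (4.02% higher and 7.26% lower), and Ser8 (5.41, 0.0253) and Jon44E (3.75, 0.0475) for the point allele, where 8.35% were (3.34% higher and 5.01% lower). For W1118 over FRT19A Jon44E was the 1 member at an unadjusted p under 0.05, where 606 of 13244 genes were, and DESeq2 called 2. For the deletion over the point allele no member had an unadjusted p under 0.05, where 34 of 13244 genes had, and DESeq2 called 0. The 3 contrasts over FRT19A share its libraries.

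In adults each genotype had 1 library, so ratios have no replicate check, and intervals cover counting error only. A gene was counted as past 2-fold when the higher library had at least 30 counts. Of 30 such members the mutant was higher for 7 and lower for 13 than the control, where 29.8% of 11065 genes were higher and 11.4% lower, 41.2% in either direction. The median log2 ratio was -0.90 over the members and 0.16 over all genes. The largest falls were in Jonah genes. Jon99Fii had 258 CPM in the Hinfp rescue, 355 CPM in the His1 rescue, 33.0 CPM in the mutant and 644 CPM in the control, and the control exceeded the mutant by a factor of 19.5 (95% interval 17.9 to 21.2). Jon99Ci had 624 CPM in the Hinfp rescue, 840.3 CPM in the His1 rescue, 11.9 CPM in the mutant and 199.5 CPM in the control, a log2 ratio of mutant to control of -4.07. Jon25Bii and Jon25Bi were at 4.17 and 7.22 CPM in the mutant, against 70.0 and 84.8 CPM in the control (log2 ratios -4.07 and -3.55). The trypsin zetaTry was at 24.4 CPM in the mutant, against 121 CPM in the control (-2.31). As in the pharate PE libraries, zetaTry, Jon99Ci and Jon99Fii were lower in the mutant. In the pharate SE libraries zetaTry alone of these was lower in both mutants than in both controls. Jon99Ci had 4.29 and 10.9 CPM in the deletion and point SE libraries, against 2.64 and 4.93 CPM in FRT19A and W1118. Jon99Fii had 21.4 and 112 CPM there, against 102 and 29.1 CPM, so the SE classes of both Jonah genes overlapped.

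Mutant excess was largest in 5 members. Try29F had 13.6 CPM in the Hinfp rescue, 29.8 CPM in the His1 rescue, 340.2 CPM in the mutant and 33.0 CPM in the control, a mutant to control ratio of 10.3 (95% interval 9.52 to 11.2). Jon66Cii was at 3.11 CPM in the mutant, against 0.345 CPM in the control, on 56 and 7 counts, a ratio of 9.01 (95% interval 4.10 to 23.4). Jon65Ai had 137 CPM in the Hinfp rescue, 245 CPM in the His1 rescue, 41.1 CPM in the mutant and 6.36 CPM in the control. Jon65Ai and Jon44E were thus higher in the mutant than in the control (log2 ratios 2.69 and 2.3) and higher still in both rescues. Jon44E had 188 CPM in the Hinfp rescue, 249.8 CPM in the His1 rescue, 94.0 CPM in the mutant and 19.1 CPM in the control. Ser8 had 52.1 CPM in the Hinfp rescue, 55.8 CPM in the His1 rescue, 52.1 CPM in the mutant and 13.1 CPM in the control, level in the mutant and both rescues, with the control lowest. yip7, at 1815 CPM in the mutant and 555 CPM in the control, was also past 2-fold, while alphaTry, Jon65Aiii and Jon65Aiv were within it (log2 ratios 0.11, -0.15 and -0.38). TMM scaling shifted all these log2 ratios by -0.23, after which 7 members were higher and 17 lower. The shares of all genes given above are for unscaled CPM. They are no background for these scaled counts, which were made for the members only.

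The rescues were set against the mutant they share a Hinfp2 allele with. The Hinfp rescue was past 2-fold higher for 21 of 30 members and lower for 3, where 7.13% of genes were higher and 26.7% lower. For the His1 rescue 22 members were higher and 2 lower, where 7.91% of genes were higher and 25.6% lower. The Jonah genes led, with median log2 ratios over the mutant of 2.88 in the Hinfp rescue and 3.16 in the His1 rescue, against 1.19 for the trypsins in each. Jon25Bi had 667 CPM in the Hinfp rescue, 357 CPM in the His1 rescue, 7.22 CPM in the mutant and 84.8 CPM in the control, a Hinfp rescue to mutant ratio of 92.4 (95% interval 77.8 to 111). betaTry had 7688 CPM in the Hinfp rescue, 5331 CPM in the His1 rescue, 249 CPM in the mutant and 859.9 CPM in the control. It thus ranked among the highest in both rescues, beside alphaTry, which had 7731 CPM in the Hinfp rescue, 5810.5 CPM in the His1 rescue, 2449 CPM in the mutant and 2263 CPM in the control. Try29F and Jon66Ci fell past 2-fold in both rescues (Try29F log2 ratios -4.65 and -3.51 for the Hinfp and His1 rescue). Jon66Cii was lower in the Hinfp rescue alone, on 24 counts, against 56 in the mutant.

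Levels in the rescues did not stop at the control. Set against the control, the Hinfp rescue was higher for 16 and lower for 3 of 29 members (background 8.73% higher and 10.4% lower), and the His1 rescue was higher for 19 and lower for 0 of 30 (9.82% and 9.25%). Both rescues exceeded both the mutant and the control for 19 of 30 members, and the mutant was the lowest of the 4 libraries for 22. These orders were counted for the members only, so no background share over all genes stands beside them. Among members with 30 counts the largest excess over the control was in Jon65Ai, with ratios of 21.5 in the Hinfp rescue and 38.5 in the His1 rescue, and Jon99Fi, with 12.2 and 22.8. Several trypsins ended near the control: zetaTry had 152 CPM in the Hinfp rescue, 113 CPM in the His1 rescue, 24.4 CPM in the mutant and 121 CPM in the control. kappaTry, lambdaTry, etaTry and iotaTry were also within 2-fold of the control in both rescues. The mutant itself was within 2-fold of the control for kappaTry (276 and 490 CPM), etaTry (45.5 and 65.8 CPM) and iotaTry (79.9 and 116 CPM). Jon99Fii stayed below the control in both rescues, at log2 ratios of -1.32 and -0.86. Between the rescues the members differed less: His1 over Hinfp rescue was past 2-fold higher for 4 and lower for 0 of 30, where 3.84% of genes were higher and 1.91% lower, 5.75% in all. These comparisons share the mutant or the control library and are given side by side.

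**Figure D4:**
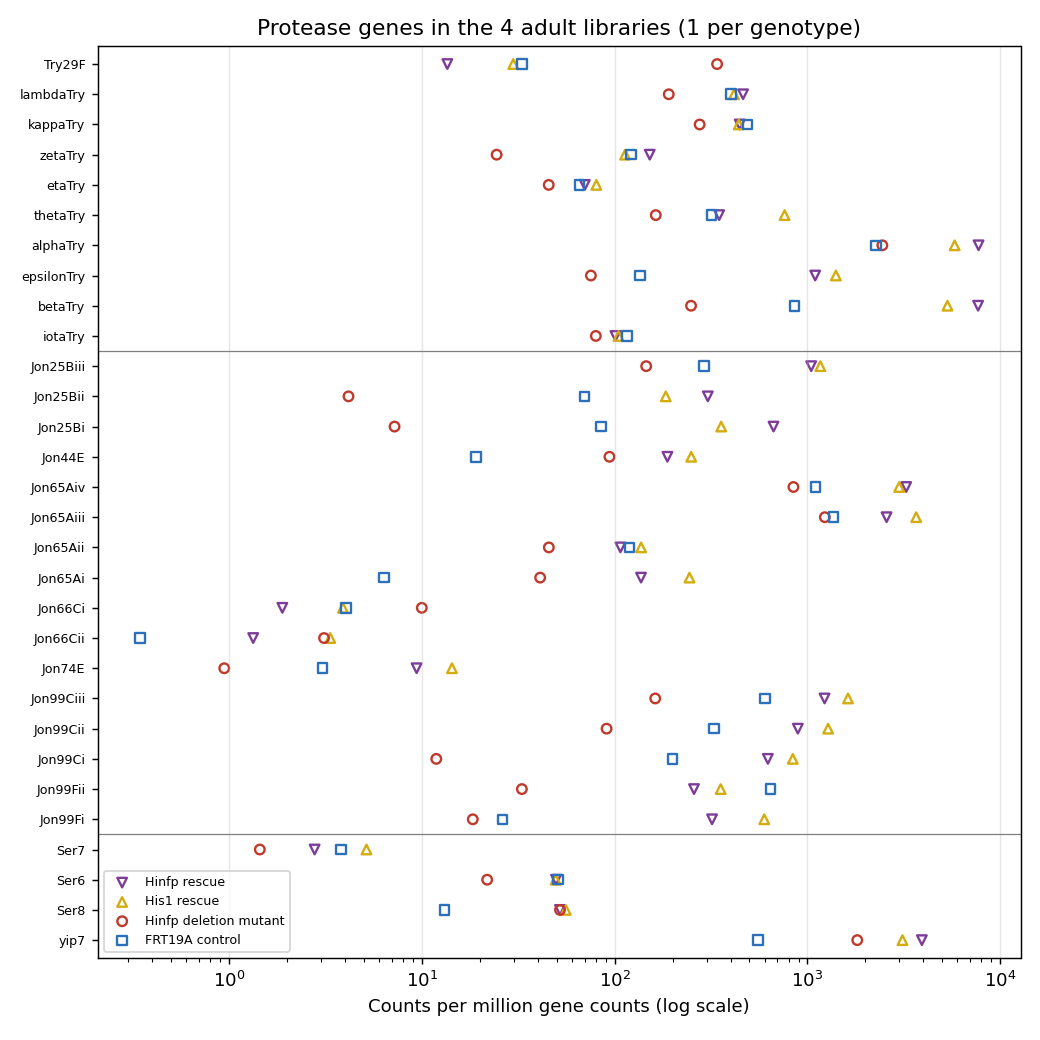
Level of each of 30 protease genes in the 4 adult libraries, 1 per genotype, in CPM on a log axis; gammaTry and deltaTry, with at most 20 counts in any adult library, are left out. For 22 genes the mutant circle is leftmost, and for 19 both rescue triangles lie right of the mutant and the control. The same orders were not counted over all genes.

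Other genes moved in the same libraries. The 18 testis markers summed to 13.3 CPM in the Hinfp rescue, 14.9 CPM in the His1 rescue, 1081 CPM in the mutant and 11.6 CPM in the control, and the accessory gland markers to 19.2, 1.37, 346 and 550 CPM in those 4 libraries in that order. The part of this tissue in the adult protease ratios was not tested. Enterocyte markers outside the family summed to 22268 CPM in the Hinfp rescue, 22078 CPM in the His1 rescue, 12359 CPM in the mutant and 13606 CPM in the control. Their mutant and control sums thus lay close together and both rescue sums above them. Single markers did not: of the 10, 3 were past 2-fold higher and 3 lower in the mutant than in the control. The list shares Amy-p, Amy-d and Mal-A1 with the carbohydrate enzymes and mag with the other digestive enzymes that follow. Of the 13 carbohydrate-digesting enzymes (amylases and maltases), 7 were past 2-fold higher in the Hinfp rescue and 6 in the His1 rescue than in the mutant, and 0 lower, with median log2 ratios of 1.0 and 0.92. Of 14 lipases, cathepsins and lysozymes, 8 and 7 were higher and 0 and 1 lower, with median log2 ratios of 2.06 and 1.46. These genes exceeded the control as well. Past 2-fold above it were 10 of 14 in the Hinfp rescue and 7 of 13 in the His1 rescue, with 0 lower. Of the 13 carbohydrate enzymes, 6 were past 2-fold above the control in each rescue and 0 lower. Visceral muscle markers summed to 6356 CPM in the Hinfp rescue, 8069 CPM in the His1 rescue, 13811 CPM in the mutant and 11388 CPM in the control.

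Adult and pharate levels were set side by side within a genotype. The tables were made and counted separately and adults had 1 library, so no test was made, and a gene was counted only when the adult library lay past 4-fold of both pharate libraries on the same side. In FRT19A controls 5 of 31 members were higher in the adult and 2 lower, where 1.77% of 10892 genes were higher and 5.77% lower. Jon25Bii had 70.0 CPM in the adult library, against 1.64 CPM in the pharate PE and 0.209 CPM in the pharate SE library. Jon25Bi had 84.8 CPM in the adult library, against 1.97 CPM in the pharate PE and 0.278 CPM in the pharate SE library. Both pharate FRT19A libraries were under 2 CPM for these genes, unlike the W1118 PE library above. epsilonTry had 135 CPM in the adult library, against 12.1 CPM in the pharate PE and 0.452 CPM in the pharate SE library. Jon99Ci had 199.5 CPM in the adult library, against 24.5 CPM in the pharate PE and 2.64 CPM in the pharate SE library, and Jon25Biii 290.3 CPM in the adult library, against 68.6 CPM in the pharate PE and 18.5 CPM in the pharate SE library. All 5 were higher in the PE than in the SE pharate library, and the adult excess over the PE library was 4.23-fold for Jon25Biii and 43.0-fold for Jon25Bi. Ser8 had 13.1 CPM in the adult library, against 3.31 CPM in the pharate PE and 0.487 CPM in the pharate SE library, past 4-fold of the SE library alone. Altogether 22 of 31 members were higher in the adult than in both pharate libraries and 5 lower than both, against 32.8% and 37.1% of 10892 genes, with a median log2 ratio of 0.77 over PE and 1.3 over SE (all genes -0.02 over each). Other digestive genes leaned the same way in FRT19A. Of 13 carbohydrate enzymes, 10 were higher in the adult than in both pharate libraries and 0 lower than both. Of 12 other digestive enzymes and lysozymes, 9 were higher than both and 2 lower. Past 4-fold of both libraries, 0 of the carbohydrate enzymes and 2 of the other digestive enzymes were higher. The adult excess was thus not limited to the proteases, and a difference between these lists was not tested.

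Members lower in adults were led by the copies deltaTry and gammaTry. In FRT19A deltaTry had 0.0493 CPM in the adult library, against 2.34 CPM in the pharate PE and 45.3 CPM in the pharate SE library, and gammaTry had 0 counts in the adult control and the adult mutant, which allows up to 0.148 and 0.167 CPM, and 2 counts in each rescue. How each table treated reads that match several places is not given in the sources used here. Jon74E had 3.06 CPM in the adult library, against 43.7 CPM in the pharate PE and 5.71 CPM in the pharate SE library. Its counted length was 1553 bp in the pharate and 903 bp in the adult table, so the feature counted differs between the tables. Try29F had 33.0 CPM in the adult library, against 71.2 CPM in the pharate PE and 104 CPM in the pharate SE library. Jon99Fi had 26.2 CPM in the adult library, against 31.4 CPM in the pharate PE and 30.4 CPM in the pharate SE library. Both lay within 4-fold. For yip7 the adult level lay between the pharate libraries, with 555 CPM in the adult library, against 492 CPM in the pharate PE and 1047 CPM in the pharate SE library.

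The deletion mutant gave a different picture. Adult over pharate, 0 of 32 members were higher past 4-fold and 3 lower (deltaTry, gammaTry and Jon74E), where 0.362% of 11591 genes were higher and 0.915% lower. All 3 carry the counting limits given above, near-identical copies or a counted length that differs between the stages. Jon25Bi had 7.22 CPM in the adult library, against 9.90 CPM in the pharate PE and 7.54 CPM in the pharate SE library. Jon25Bii had 4.17 CPM in the adult library, against 8.16 CPM in the pharate PE and 5.85 CPM in the pharate SE library. In the mutant these genes therefore held about the same level at both stages, above the pharate FRT19A libraries and below the adult one. epsilonTry had 75.4 CPM in the adult library, against 43.8 CPM in the pharate PE and 19.1 CPM in the pharate SE library, and Jon99Ci 11.9 CPM in the adult library, against 7.02 CPM in the pharate PE and 4.29 CPM in the pharate SE library. The median log2 ratio of the members was 0.22 over PE and 0.06 over SE (all genes 0.15 and 0.17). The difference between genotypes in the stage ratio was not tested.

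**Figure D5:**
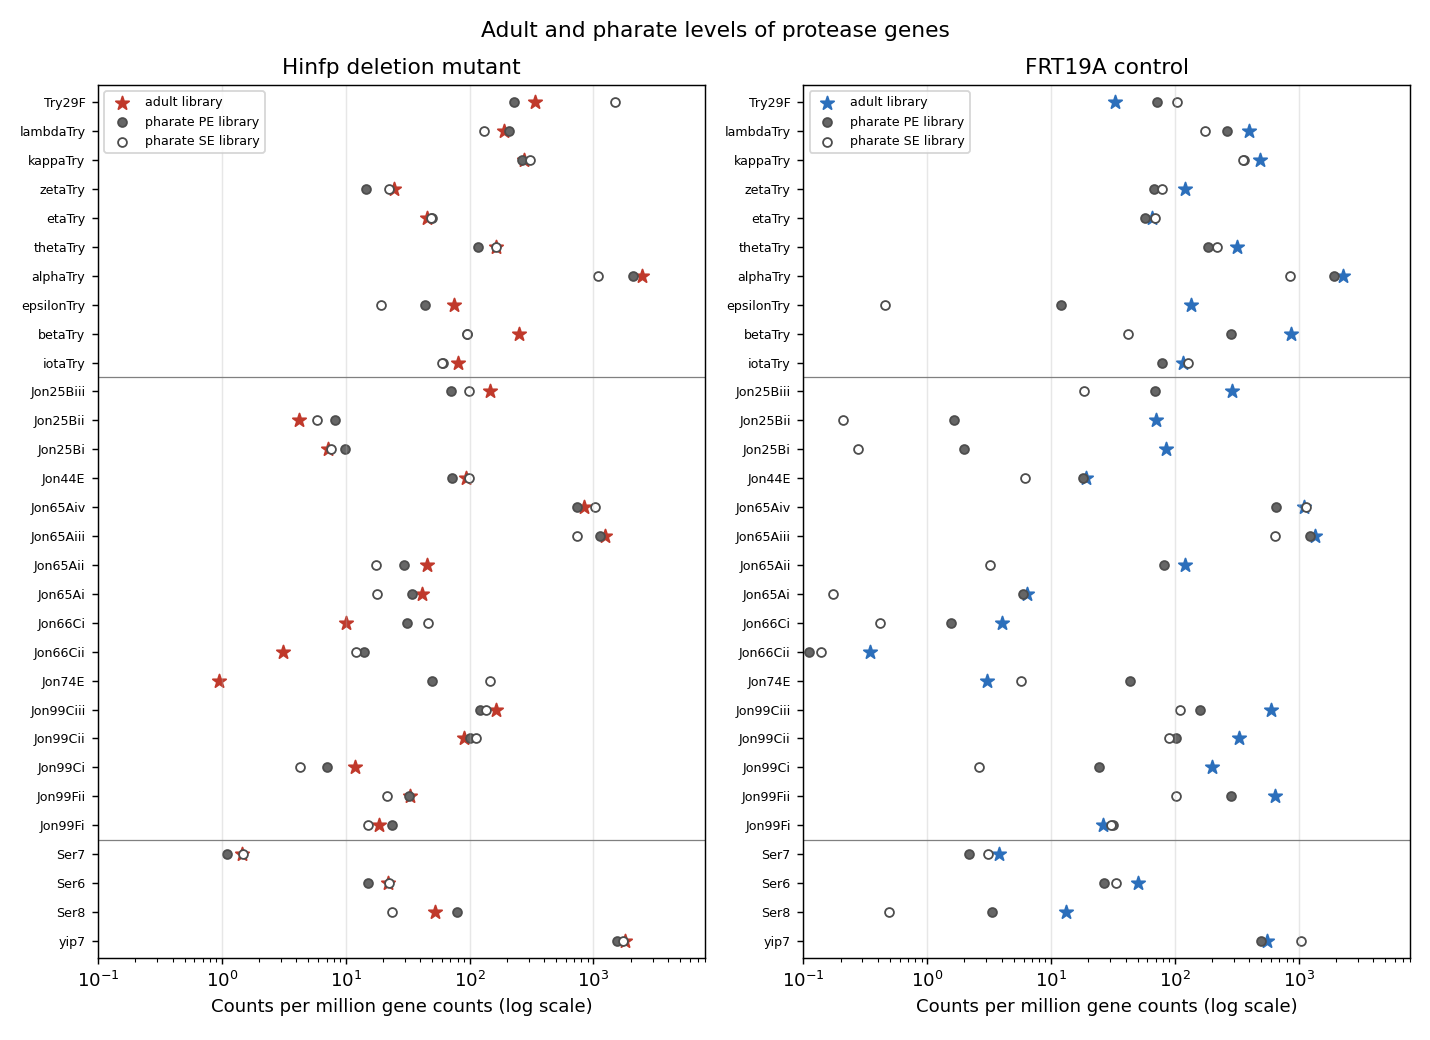
Adult level (star) and pharate levels (PE filled, SE open) of 30 protease genes in the deletion mutant (left) and the FRT19A control (right), in CPM on a log axis. Stars for Jon25Bi, Jon25Bii, epsilonTry and Jon99Ci lie far right of both pharate points in the control, and near them in the mutant.

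Other genes of digestion and of serine protease biology were read in the pharate mutant over control fit by the same test. Of 13 carbohydrate enzymes 2 rose and 0 fell (median log2 fold change 0.11), the amylases Amy-d (2.08, adjusted p = 0.0184) and Amy-p (1.61, adjusted p = 0.0492). Of 14 other digestive enzymes and lysozymes 3 rose and 0 fell (median 1.0), among them the lysozyme LysP (5.82, adjusted p = 0.0126) and the cysteine protease CtsB (0.70, adjusted p = 0.0199). Of 10 serpins, which inhibit serine proteases, 3 rose and 1 fell (median 1.04), led by Spn43Aa (2.15, adjusted p = 0.0240) and Spn43Ab (-0.73, adjusted p = 0.0304). None of the 10 tested serine proteases of blood and development and none of the 14 regulators of gut transcription and nutrient response was called, with 1 of each at an unadjusted p under 0.05. The background for the calls is the 4.59% of genes called higher and 6.34% called lower. At an unadjusted p under 0.05 there were 3438 of 13244 genes.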

How the data were processed

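RNA from guts of 12 samples was sequenced. The authors deposited whole-number counts per gene for 8 pharate and 4 adult libraries, and TPM values for the pharate libraries. Per the submitters' processing notes, which give no roles, the tools were STAR 2.5.3a and featureCounts 1.5.2 for pharate libraries, and Trimmomatic 0.39, Bowtie2 2.3.5, STAR 2.5.3a, featureCounts 1.6.2, DESeq2 and edgeR 3.28.1 for adult ones. The labels describe the library preparation both as ribosomal RNA depletion and as poly-A selection, and the strand used in counting is not given in the sources used here.

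Counts as deposited were fitted with edgeR 4.0.16 (quasi-likelihood, TMM, two-sided) over all genes that passed filterByExpr at a minimum count of 10, with adjustment by Benjamini-Hochberg at 0.05. TPM served only to compare levels between genes. CPM used gene rows alone, without the 156 transposon rows of the adult table, and 112 per-sample columns were not used. Groups came from titles and genotype labels. Adult libraries, 1 per genotype, were compared by CPM ratio with exact binomial 95% intervals, which cover counting error only. A count of 0 was given a limit of 3 counts. Single-group contrasts shared 1 estimate of spread over 8 libraries. The fits were tested on simulated data. Same-tag libraries deviated together (correlation 0.651 to 0.851 over 6 group pairs), so the tag was taken to pair libraries and served as a block in an alternative. Other alternatives were DESeq2 1.42.0, total count scaling, no filter, other thresholds, single control strains and leaving out each library.

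Members and gene lists were chosen with earlier results of these data known. Picked by rule were the 10 members with the highest mean CPM and those called in mutants over controls. So were the 5 largest adult rises and falls in the mutant and the 5 largest adult over pharate ratios either way. Not all of these are given with a value in every library. Other members were named after their values were seen.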

Additional observations from a re-analysis of the deposited data

Results flagged for a closer look

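Among 46 sets of 4 libraries checked for 1 library far from the other 3, 8 were found. The flag is set to pass about 1 in 20 sets of independent, normally spread values. Control CPM spanned up to 639-fold (Jon25Bi) and the sets came from the same 8 libraries, so the count cannot be set against that rate. All 8 were sets of controls with a W1118 library at the end. The W1118 PE library was high for Jon25Bi (177.7 CPM), Jon25Bii (69.3 CPM), Jon65Ai (79.8 CPM), Jon66Cii (2.22 CPM), Jon99Fi (164.9 CPM) and epsilonTry (266 CPM). The W1118 SE library was high for Try29F (3017 CPM) and low for kappaTry (323.6 CPM).

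For 4 members the deletion mutant was lower than FRT19A in the adult libraries and higher in both pharate tags; this difference between stages was not tested. On the log2 scale Jon25Bi was at -3.55 in adults, against 2.33 in PE and 4.76 in SE pharate libraries. Jon25Bii was at -4.07 in adults, against 2.32 in PE and 4.81 in SE libraries. Jon74E was at -1.70 in adults, against 0.20 in PE and 4.69 in SE libraries, on 17 counts in the adult mutant and 62 in the adult control. The trypsin epsilonTry was at -0.84 in adults, against 1.86 in PE and 5.40 in SE libraries.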

How the results depend on the processing

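For mutants over controls (1 called), DESeq2 called 5, scaling by total counts 2, the replicate block 5, FRT19A controls only 2 and W1118 controls only, chosen after seeing the data, 0. Leaving out 1 library gave 0 to 4, with 4 without W1118 SE and 3 without W1118 PE. In SE libraries (0 called) DESeq2 called 13 and the fit with no filter 2, and leaving out 1 library gave 0 to 14. In PE libraries (8 called) total counts gave 5, and leaving out 1 library gave 0 to 20. For the deletion and the point allele over FRT19A (0 each) DESeq2 called 6 and 5, and the replicate block 2 and 2. For W1118 over FRT19A (0) DESeq2 called 2. For PE over SE (3) DESeq2 called 12, and leaving out 1 library gave 2 to 6. For the interaction (0) DESeq2 called 8, and the calls changed with the library left out. Adult over pharate, a 2-fold threshold gave 14 in place of 7 members in FRT19A and 6 in place of 3 in the mutant. Except for the replicate block, the share of all genes called under these alternatives is not given here. Such member counts have no background beside them and show only how far the calls depend on the processing.

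Under the replicate block 6 of 32 mutant over control estimates turned from negative to positive (Try29F, Jon25Bi, Jon25Bii, Jon25Biii, epsilonTry and betaTry), and none of the 6 was called with or without it. Try29F was at a log2 fold change of 0.64 under the replicate block and 2.80 with FRT19A controls only, and lay between -0.78 and 2.76 when 1 library was left out; it was positive without W1118 SE (2.76), deletion PE (0.16) or point PE (0.09). Jon25Bi was at 0.53 under the replicate block and 3.14 with FRT19A controls only, and between -2.58 and 3.54 when 1 library was left out, positive only without W1118 PE. The cause was not tested. Adult counts past 2-fold stayed within 1.5 times the reported ones under TMM scaling and a floor of 100 counts. With total counts in place of TMM the median log2 fold change of all genes was 0.23 in the deletion contrast, against 0.05 with TMM, and 0.12 in PE libraries, against 0.01. The replicate block left W1118 over FRT19A and the deletion over the point allele at 0 calls. With 2 libraries a group, and 1 in adults, small differences cannot be resolved.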
